A study of Cricetulus griseus with 3 samples.

Results

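Ins2, Gast, Sct, Hcrt and Pnliprp1 encode secreted proteins of the pancreas, gut and brain. Their ratios were read on mouse cDNA microarrays hybridised with RNA of Chinese hamster ovary (CHO) cells, a line derived from ovary. Members were all spots annotated with exactly 1 of these symbols, which gave 6 spots for the 5 genes, of 16928 tested spots and 8146 genes with a value. Ins2, Gast, Hcrt and Pnliprp1 had 1 spot each and Sct had 2. The 5 genes were selected on these same ratios, because they read high on all 3 arrays, so their values are given as a description with no test. A working name of peptide hormones covers Ins2, Gast, Sct and Hcrt, but not Pnliprp1, which encodes a protein related to pancreatic lipase.

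The study compared a state of enhanced γ-secretase activity with a state of inhibited activity, in 3 independent experiments with 1 array each. On each array, RNA of the S-1 line was set against RNA of untransfected parental CHO cells. S-1 is a line derived from the parental cells by way of the CHO γ-30 line. It carries constructs for the 4 γ-secretase subunits PS1, NCT-GST, APH1-a2-HA and Flag-PEN2, is marked in the study as overexpressing APP as well, was grown under G418 (200 µg/ml), puromycin (25 µg/ml), zeocin (250 µg/ml), hygromycin (250 µg/ml) and blasticidin (10 µg/ml), and received 0.05% DMSO for 24 h. The parental cells received 10 µM DAPT, a γ-secretase inhibitor, in 0.05% DMSO for 24 h. Line history, constructs, selection drugs and inhibitor all differed between both sides of every ratio, so their parts cannot be told apart. In RNA of a whole culture, a larger share of cells with a transcript and more transcript per cell cannot be told apart either.

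Insulin lowers blood glucose after it is released from the beta cells of the islets. Gastrin, from G cells of the stomach, drives acid secretion, and secretin, from S cells of the duodenum, stimulates the flow of bicarbonate from the pancreas. The orexins made from Hcrt come from neurons of the lateral hypothalamus and maintain wakefulness. All 4 are made as longer precursors that are cut by prohormone convertases in the secretory pathway of specialised cells, whereas Pnliprp1 is a product of the acinar cells that make the digestive enzymes.

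Values are log2 ratios with S-1 as numerator and DAPT-treated CHO as denominator, so 1 unit is a doubling in S-1 and 0 is no difference. A ratio within a spot carries no level: whether a hormone transcript was abundant, rare or near background in either line was not analysed here, and likewise whether the hamster transcript or another one bound to the mouse clone was not tested. For the same reason the ovarian identity of the cells could not be checked against marker levels. The median over all tested spots was 0.01, and the SD over spots was 0.46, 0.50 and 0.53 on arrays 1, 2 and 3. Tested spots correlated between arrays with Pearson's r of 0.88 to 0.96, across spots, which are not independent replicates. S-1 RNA was labelled with Cy3 on arrays 1 and 2 and with Cy5 on array 3. As a check of the labels, clones of the transfected subunits Psenen and Aph1a read 3.09 ± 0.25 and 2.02 ± 0.16 (SD, n = 3), and Ncstn read 0.38 ± 0.25 without passing the threshold used below.

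The spots on these arrays fall into clone collections that occupy fixed positions in each printed block. Of these, 3 collections carry the letters H, P and N in the study's clone names. A further group of 480 tested spots lies at positions from which the study's clone lists name no clone, and these are called unlisted spots here. The collections matter for the hormone genes. Ins2 and Hcrt were unlisted spots, Gast, Pnliprp1 and 1 spot of Sct were P clones, and the other Sct spot was an H clone. The high ratios of Ins2 and Hcrt were thus read at positions that the study's lists do not name. Of the 2658 listed clones, 109 were paired to no spot or to several.

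Hcrt, the orexin precursor gene, had the highest ratio of the 5 genes, at 2.51, 2.76 and 3.11 on arrays 1, 2 and 3. Its mean of 2.79 ± 0.30 (SD, n = 3 arrays) is a linear ratio of 6.92. Array 3 was the highest and array 1 the lowest, and the 3 values span less than the distance of any of them from 0. Hcrt ranked 11 of all 16928 tested spots by mean, and 99.9% of them lay lower.

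Ins2, a rodent insulin gene, read 2.30, 2.47 and 2.72. The mean was 2.50 ± 0.21 (SD, n = 3), a linear ratio of 5.65, and again array 1 was lowest and array 3 highest. Ins2 was below Hcrt on all 3 arrays, by a mean of 0.29 ± 0.09, although the ranges of the 2 spots overlapped. It ranked 107 of all tested spots.

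Gast, the gastrin precursor gene, read 1.85, 2.16 and 2.16, with a mean of 2.06 ± 0.18 (SD, n = 3) and a linear ratio of 4.16. Arrays 2 and 3 were nearly equal and array 1 was lower. The values did not overlap with those of Ins2, which was higher on each array, by 0.44 ± 0.12 on average.

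Sct, the secretin precursor gene, was measured by 2 clones that read differently. Its P clone gave 1.47, 1.75 and 2.005, with a mean of 1.74 ± 0.27 (SD, n = 3), a linear ratio of 3.34. Its H clone gave 0.09, 0.07 and 0.10, with a mean of 0.09 ± 0.02 (SD, n = 3), a linear ratio of 1.06. The P clone was high on all 3 arrays and the H clone was near 0 on all 3, so the pair of spots did not overlap. The P clone exceeded the H clone by 1.38, 1.68 and 1.91, a mean difference of 1.66 ± 0.26 (SD, n = 3). Averaged into 1 gene value of 0.91 ± 0.14, Sct would sit where neither clone read.

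Pnliprp1 read 1.55, 1.54 and 1.83, with a mean of 1.64 ± 0.16 (SD, n = 3) and a linear ratio of 3.11. Arrays 1 and 2 were nearly equal and array 3 was higher. The P clone of Sct was above Pnliprp1 on 2 of 3 arrays only, by 0.10 ± 0.16 on average, so the order of these neighbours did not exceed its spread. Gast was above the P clone of Sct on all 3 arrays, by 0.31 ± 0.14, with overlapping ranges.

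**Figure D1:**
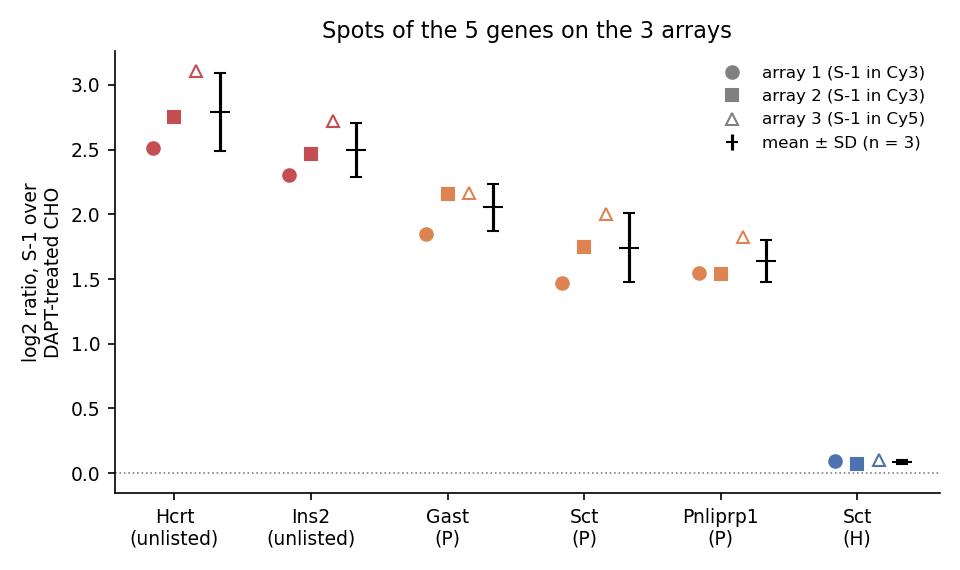
Log2 ratio, S-1 against DAPT-treated CHO (y axis) for the 6 spots of the 5 genes (x axis, with the clone collection in brackets). Symbols are single arrays, the open triangle being the array with exchanged dyes, and bars are mean ± SD over 3 arrays. The H clone of Sct lies at 0.09, away from the other 5 spots, and array 3 is the highest for every spot.

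All 6 spots were highest on array 3, on which S-1 RNA carried Cy5, and 4 of 6 were lowest on array 1. Array 3 exceeded the mean of arrays 1 and 2 by 0.48 for Hcrt, 0.39 for the P clone of Sct, 0.34 for Ins2, 0.28 for Pnliprp1, 0.16 for Gast and 0.02 for the H clone of Sct. The direction was the same in both dye orientations for each spot. For the high spots this was required by the selection on all 3 arrays, so nothing is read from it. Array 3 was the only one with exchanged dyes, so dye and experiment cannot be told apart in these gaps.

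As background, 9.68% of all 16928 spots rose in S-1 at a limma adjusted p under 0.005, the false discovery rate the study used. Of the 6 spots, 5 met that threshold and the H clone of Sct did not, and since the genes were selected on these ratios, nothing is read from that count. The share that rose differed between the collections. It was 6.76% of 15360 H spots, 19.3% of 960 P spots, 28.1% of 128 N spots and 78.8% of 480 unlisted spots. The shares that fell were 8.52% of H spots and 12.8% of P spots.

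Seen against their own collection, Hcrt and Ins2 were less unusual than against the whole array. The median unlisted spot read 1.56, with quartiles of 0.67 and 2.43, and 301 of the 480 read above 1. Ins2 exceeded 79.4% of unlisted spots and ranked 99 among them, and Hcrt exceeded 98.8% and ranked 6. Centred on the median of their collection on each array, Ins2 would read 0.94 and Hcrt 1.24.

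The P clones lay farther above the median of their collection, which was 0.03 with quartiles of -0.16 and 0.32. Gast exceeded 99.1% of the 960 P spots and ranked 9, Sct exceeded 98.2% and ranked 17, and Pnliprp1 exceeded 97.7% and ranked 22. As these genes were selected for high ratios, nothing is read from their ranks. The H clone of Sct exceeded 68.1% of H spots, whose quartiles were -0.14 and 0.13, and lay among the bulk of that collection.

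**Figure D2:**
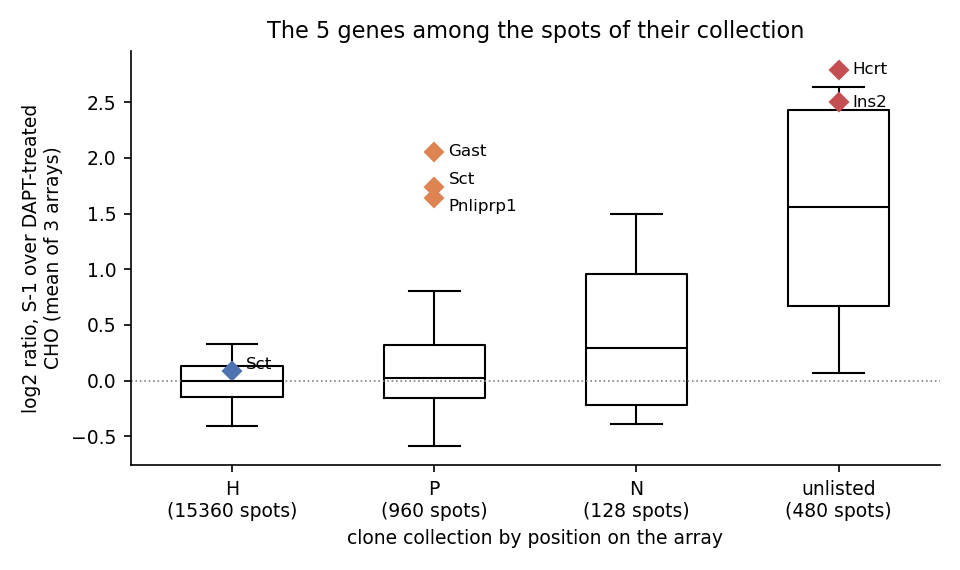
Log2 ratio, S-1 against DAPT-treated CHO, mean of 3 arrays (y axis), by clone collection (x axis). Boxes are quartiles with the median, whiskers reach the 10th and 90th percentiles of the spots, and diamonds are the spots of the 5 genes. Ins2 and Hcrt lie in a collection with a median of 1.56, whereas Gast, Sct and Pnliprp1 lie above the whisker of a collection centred near 0.

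The surroundings of each spot on the slide also differed between the collections. In block 9, the 11 other unlisted spots beside Hcrt had a median of 2.31 and ranged from 0.19 to 2.85, and 2 of them were above Hcrt. Among them were the spots of the neuropeptide gene Npy (2.65) and of the receptor genes Mc4r (2.81) and Crhr2 (2.85). In block 3, the 11 other unlisted spots beside Ins2 had a median of 2.37 and ranged from -0.05 to 2.81, and 5 of them were above Ins2.

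The P clones had low neighbours. The 23 other P spots in the block of Sct ranged from -1.58 to 0.55 around a median of -0.03, all below Sct. The 23 in the block of Gast ranged from -0.99 to 1.99 around -0.07, again all below it, with 4 above 1. The 11 beside Pnliprp1 ranged from -0.53 to 1.05 around 0.19. Gast and the P clone of Sct were printed at the same position of blocks 24 and 12, and of the 31 P spots that share the position with either of them, the other hormone clone was the only one above 1. Clones selected for high ratios will tend to exceed their neighbours, so nothing is read from these positions.

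Spots with the most similar ratios, by Euclidean distance over the 3 arrays among spots of other single-named genes, came mostly from the unlisted group. Closest to Ins2 were Syt3 (distance 0.0053), Nes (0.015) and Ehhadh (0.051), all unlisted. Closest to Hcrt were Mc4r (0.065), Casp14 (0.087) and Grb7 (0.098), also unlisted, and Mc4r is printed in the same block. Gast was followed most closely by the unlisted spots of Prkcz (0.070), Pmvk (0.079) and Fos (0.087).

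The remaining clones had more mixed neighbours by ratio. The P clone of Sct lay nearest to Cpt1a (0.099, unlisted), Hoxd13 (0.129, P) and Myo1a (0.156, P), and its H clone nearest to the H clones of Sec63 (0.013), Lrrc8c (0.014) and Cdk5rap2 (0.015). Pnliprp1 was nearest to Cdkn2aip (0.086, H), Sytl4 (0.170, unlisted) and Sdhd (0.178, unlisted). A short distance here means similar ratios on 3 arrays and nothing more.

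To place the 5 genes among genes of related function, 9 lists were read, each without the 5 genes: hormones of the islet, gut, brain and other endocrine tissue, enzymes of the exocrine pancreas, receptors, prohormone processing, transcription factors and secreted lipases. They name 241 genes, of which 107 had a value, 102 of them other than the 5. Among these 102 genes, 51 rose, 6 fell and 45 did not pass (limma on gene values, adjusted p under 0.005), with a median of 0.41. Over all 8146 genes, 12.4% rose, 10.3% fell and the median was 0.01. Of the 43 listed genes with an unlisted spot, 35 rose, whereas of the 59 without one, 16 rose and 5 fell. By spot, 36 of the 44 unlisted spots of the listed genes rose, beside the 78.8% of all unlisted spots, whereas their 45 H spots ran from -2.87 to 0.33 with a median of -0.05. What the printing positions contribute to the list counts was not tested.

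The islet hormones other than Ins2 were measured by P and N clones only, and 3 of 5 rose. Over the whole array, 19.3% of P spots and 28.1% of N spots rose. Iapp, the islet amyloid polypeptide co-secreted with insulin, read 1.25, 1.61 and 1.93 (mean 1.60 ± 0.34, SD, n = 3, limma adjusted p = 8.8e-04) on an N clone. Ppy, pancreatic polypeptide, read 1.22, 1.29 and 1.40 (mean 1.30 ± 0.09, limma adjusted p = 1.5e-04), and Sst, the inhibitory hormone somatostatin, read 0.68, 1.004 and 1.04 (mean 0.91 ± 0.20, limma adjusted p = 0.0011), both on P clones. All 3 were positive on every array. Each lay on every array below Ins2, which was selected for its high ratios. Pyy, a hormone of gut and islet, read 0.39 ± 0.16 (limma adjusted p = 0.0099), and Gcg, which encodes glucagon and GLP-1, read 0.09 ± 0.03 (limma adjusted p = 0.14). Without array 2, or with control spots included in the fit, 1 of the 5 rose, which was Ppy in both cases, and Iapp and Sst read 1.59 and 0.86 without array 2. Without array 3, Pyy passed as well (0.31, limma adjusted p = 0.0015).

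Of the 4 gut hormones beside Gast and Sct, only Tac1, the substance P precursor, rose, at 0.43 ± 0.10 (SD, n = 3, limma adjusted p = 0.0032). Cck, which encodes the gastrin relative cholecystokinin, read -0.74, -0.47 and 0.19, with a negative mean of -0.34 ± 0.48 and opposite signs on the arrays. Its mean was -0.14 without array 1 and -0.27 without array 2, and without array 3 it fell, at -0.61 (limma adjusted p = 2.1e-04). Gip, an incretin, read 0.19 ± 0.07, and Vip, a relaxant peptide of the secretin family, read 0.12 ± 0.03, neither passing. The median of the 4 was 0.16. Gast and Sct, which were selected for high ratios, had gene values of 2.06 and 0.91. Tac1 lost its call without array 1 (0.48, limma adjusted p = 0.010), without array 2 (0.41, limma adjusted p = 0.028) and with control spots included.

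Of the 10 brain neuropeptide genes other than Hcrt, 8 rose, and the median was 2.11. All 10 had an unlisted spot, as Hcrt did, and 78.8% of all unlisted spots rose. Gal (galanin) read 2.69 ± 0.22, Npy, an appetite-stimulating peptide, 2.65 ± 0.25, Pdyn, an opioid precursor, 2.63 ± 0.21 and Gnrh1, which releases the gonadotropins, 2.60 ± 0.29 (SD, n = 3, largest limma adjusted p = 1.6e-04). Not every unlisted spot was high: the single spot of Avp, the vasopressin gene, read 0.06, 0.03 and -0.04, and the stress peptide gene Ucn read 0.13 on its unlisted and 0.16 on its P spot.

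Among the 10 hormones of pituitary, fat and other tissue, 5 rose, 2 fell and 3 did not pass, and with control spots included 3 rose and 1 fell. Of all genes, 12.4% rose and 10.3% fell, and of all unlisted spots 78.8% rose. The adipokine genes Adipoq (2.69 ± 0.36), Retn (2.64 ± 0.29) and Lep (2.50 ± 0.30) rose, each on 1 unlisted spot. Adm, the vasodilator adrenomedullin, fell to -2.64 ± 0.28 (SD, n = 3, limma adjusted p = 1.5e-04), a linear ratio of 0.160. Its 4 H clones read between -2.87 and -2.46, each of them negative on all 3 arrays. Nppb, a natriuretic peptide gene, read -0.49 ± 0.23 and Inha, an inhibin subunit gene of the ovary and testis, -0.18 ± 0.10 on H clones, neither passing. With control spots included, Adipoq did not pass, and without array 3 Nppb passed (-0.37, limma adjusted p = 0.0017).

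The spots of these 29 other hormone and neuropeptide genes differed by collection. The 14 unlisted spots had a median of 2.58 and 12 rose, beside 78.8% of all unlisted spots. The 10 P spots had a median of 0.18 and 3 rose, those of Ppy, Sst and Tac1. The 8 H spots ran from -2.87 to 0.17, and the 4 that fell were all Adm. Of the 4 N spots, 2 rose and 1 fell. Beside these, the P clones of Gast and Sct were higher than every one of the 10 P spots, of which the highest read 1.30. Gast and Sct were selected for high ratios, so nothing is read from this order.

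The exocrine pancreas enzymes, the company of Pnliprp1 in acinar cells, stayed near 0 for the most part: 8 of 10 did not pass and the median was 0.10. Cel, the bile salt-dependent lipase, rose at 1.38 ± 0.13, but its unlisted spot read 2.55 and its P spot 0.21. Cela1, an elastase, rose at 0.37 ± 0.05 (limma adjusted p = 0.0028). Gp2, a zymogen granule protein, read 0.96 ± 0.46 on an N clone (limma adjusted p = 0.0092) and the trypsinogen gene Prss3 read 0.27 ± 0.06 (limma adjusted p = 0.0076). Clps, the cofactor of pancreatic lipase, read 0.01 ± 0.09 on a P clone. The P clone of Pnliprp1, which was selected for its high ratios, read 1.64. Cela1 lost its call without array 1 (0.38, limma adjusted p = 0.022), without array 2 (0.38, limma adjusted p = 0.025) and with control spots included. Without array 3, 4 of the 10 rose, Gp2 (0.72) and Prss3 (0.25) among them.

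Among the 5 other secreted lipase genes, Lcat, which esterifies plasma cholesterol, rose at 2.74 ± 0.24 on an unlisted spot, and Cel rose as given above. Lpl, which clears plasma triglyceride, fell to -0.52 ± 0.07 (limma adjusted p = 0.0012), with an H spot at -1.20 and an unlisted spot at 0.16. Liph, a phospholipase that acts on phosphatidic acid, fell to -0.42 ± 0.10 on an H clone. Neither fall passed without array 1 or array 2 (Lpl -0.52 and -0.49, Liph -0.44 and -0.46) or with control spots included.

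As markers of the cell types that make these products, 6 measured acinar genes had a median of 0.10 and 2 rose, and 6 measured islet genes had a median of 0.68 and 4 rose. As background, 12.4% of all genes rose, and by spot 19.3% of P, 28.1% of N and 78.8% of unlisted spots. Without array 2, or with control spots included, 1 of the 6 islet genes rose, which was Ppy in both cases, and 3 rose without array 1. Of the acinar genes, 1 rose without array 1, without array 2 or with control spots included. The 4 measured hypothalamic genes, all with an unlisted spot, had a median of 1.53 and 3 rose. Of the 3 measured enteroendocrine genes, Cck, Gip and Neurog3, 0 rose by limma at the threshold and 1 was higher at an unadjusted p under 0.05. They are ratios only, and the part of any such cell type in the hormone ratios was not tested.

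**Figure D3:**
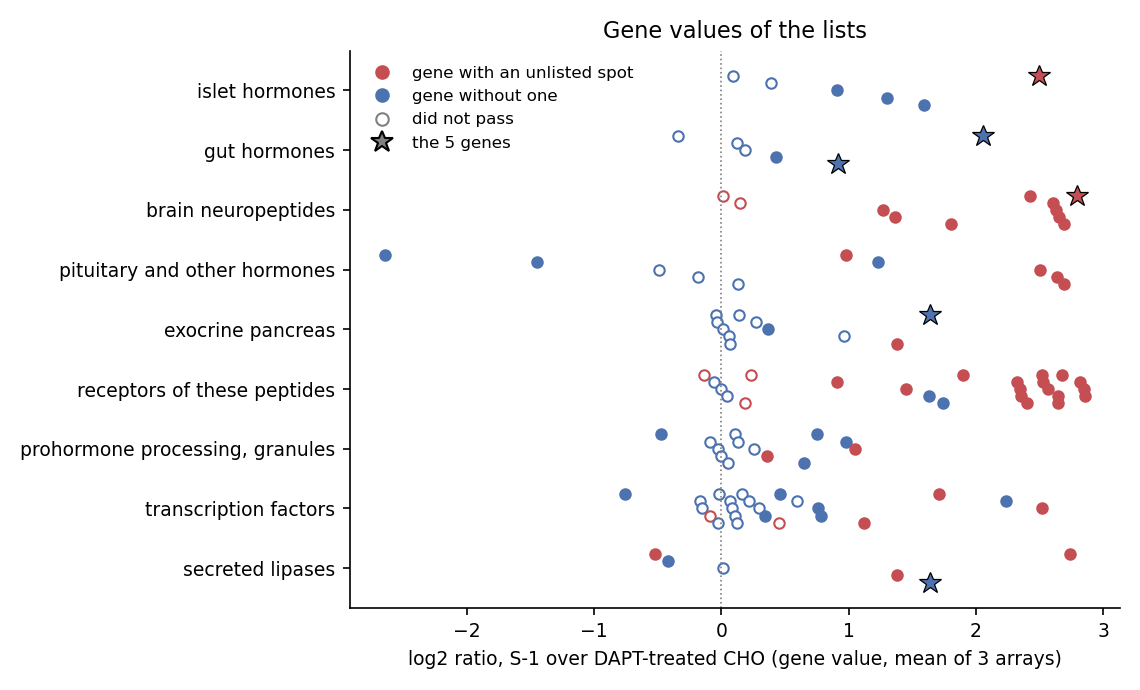
Gene values as log2 ratio, S-1 against DAPT-treated CHO, mean of 3 arrays (x axis), for the 9 lists (y axis; vertical offsets within a list only separate points). Filled points passed the threshold, open points did not, red marks genes with an unlisted spot and stars mark the 5 genes, Pnliprp1, Cel and Clps appearing in 2 lists. Red points crowd between 2 and 3, while the exocrine pancreas genes gather near 0.

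Receptors of the hormones and neuropeptides showed the pattern of the unlisted spots, of which 78.8% rose over the whole array. Of 24 receptor genes, 18 rose and 6 did not pass, with a median of 2.33. Among the 19 with an unlisted spot, 16 rose, and among the 5 without one, 2 rose. The highest were the bombesin receptor Grpr (2.85 ± 0.30), the urocortin receptor Crhr2 (2.85 ± 0.23), the melanocortin receptor Mc4r (2.81 ± 0.27) and the galanin receptor Galr1 (2.68 ± 0.33), each on 1 unlisted spot. The unlisted spots of Galr3, another galanin receptor, and Avpr1b, a vasopressin receptor, read 0.23 and 0.00. With control spots included, 14 of the 24 receptor genes rose and Galr1 did not pass.

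The receptors for the hormones of the 5 genes were higher in S-1 where they were measured. Insr, the insulin receptor, rose at 0.91 ± 0.17 (SD, n = 3, limma adjusted p = 8.8e-04), with an N spot at 0.65 and an unlisted spot at 1.17. Cckbr, which binds gastrin and cholecystokinin, rose at 2.32 ± 0.21 on an unlisted spot (limma adjusted p = 1.5e-04). Sctr, the secretin receptor, read 1.09, 1.83 and 1.96 on an N clone and rose at 1.63 ± 0.47 (limma adjusted p = 0.0019). Over the whole array, 78.8% of unlisted spots and 28.1% of N spots rose, with medians of 1.56 and 0.30. The unlisted spot of Insr, at 1.17, lay below the median of its collection, and its N spot, at 0.65, above. Without array 2, Insr (0.90, limma adjusted p = 0.0074) and Sctr (1.53, limma adjusted p = 0.011) did not pass. Hcrtr1 and Hcrtr2, the orexin receptors, were not analysed here.

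Of the 13 genes of prohormone processing and secretory granules, 5 rose, 1 fell and 7 did not pass, with a median of 0.13. Of all genes, 12.4% rose and 10.3% fell. The convertase genes divided by clone. Pcsk1, which cuts proinsulin and other precursors, read 1.49 on its N clone and 0.00 on its P clone. Pcsk6 read 2.59 on its N, 0.56 on its P and -0.22 on its H clone. Pcsk5 read 2.18 on its N, 0.51 on its P and -0.16 and 0.05 on its H clones. Rab3a, a GTPase of vesicle release, rose at 1.05 ± 0.11 on an unlisted spot. Ptprn2, a dense-core granule protein, read 0.26 ± 0.06, and Pam, which amidates peptide ends such as those of gastrin and secretin, read 0.13 ± 0.05 over 6 H clones, neither passing. The calls of Pcsk1, Pcsk5 and Pcsk6 did not pass without array 2 (0.72, 0.65 and 0.99), when 1 of the 13 genes rose, and with control spots included 0 rose by limma, with 8 of the 13 higher at an unadjusted p under 0.05. The gene that fell, Cpd, a carboxypeptidase that trims cut peptides, read -0.48 ± 0.07 and did not pass without array 1 (limma adjusted p = 0.013), without array 2 (limma adjusted p = 0.016) or with control spots included. Ptprn2 passed without array 3 (0.24, limma adjusted p = 0.0045).

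Among 23 endocrine and acinar transcription factor genes, 8 rose, 1 fell and 14 did not pass, with a median of 0.22. Beside these, 12.4% of all genes rose and 10.3% fell. Pax4, needed for beta cells, rose at 2.51 ± 0.28 on an unlisted spot. Hhex, a regulator of foregut and delta cells, rose at 2.23 ± 0.21 on a P clone (limma adjusted p = 1.5e-04), above Gast among P spots. Hnf4a rose at 1.71 ± 0.12, with an unlisted spot at 2.34 and a P spot at 1.08. Nkx2-2, an islet factor, rose at 1.12 ± 0.39, with an unlisted spot at 2.61 and an N spot at -0.36. Nkx6-1, a beta cell factor, read 0.45 ± 0.20 and the acinar factor Rbpjl read 0.60 ± 0.42, neither passing. Of the 23 genes, 3 rose without array 2 or with control spots included, and Nkx2-2 then read 1.15 and 1.12 without passing. The gene that fell, Lhx9, read -0.75 ± 0.16 and did not pass without array 1 (limma adjusted p = 0.0051), without array 2 (limma adjusted p = 0.0095) or with control spots included. Without array 3, 2 genes fell and Nkx6-1 passed (0.34), and Rbpjl passed without array 1 (0.83).

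Genes measured by spots of several collections allowed the collections to be compared on the same gene. Over the whole array, 205 genes had both unlisted and H spots, with medians of 0.97 and -0.03. The unlisted spot was over 1 unit higher for 114 of them and over 1 unit lower for 0. Against P spots the medians were 0.72 and 0.02 over 46 genes, with 21 over 1 higher and 2 over 1 lower. Neither Ins2 nor Hcrt had a second spot, so no such comparison could be made for them.

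Between P and H spots the gap was small for most genes. Over 321 genes with both, the median difference was 0.05, with 16 genes over 1 higher and 5 over 1 lower on the P spot. The difference of 1.66 for Sct ranked 5 of the 321. Sct was selected for high ratios, and its P clone is the high one, so nothing is read from this rank. Which clone of Sct reflects the hamster secretin transcript was not tested here. The study also ran real-time PCR on its top genes and reported that a subset of them differed in transcript level. Its table of PCR primers includes SCT and PNLIPRP. Those PCR values were not used here. Gast and Pnliprp1 had no H clone. The hamster gene annotation held the symbols Ins, Gast, Sct and Hcrt, but not Pnliprp1. A missing symbol does not show that the gene is absent.

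Among the listed genes, 16 had both an unlisted spot and a spot of another collection, and 10 read over 1 higher on the unlisted spot. The pituitary precursor gene Pomc read 2.62 on its unlisted and -0.09 on its P spot. Trh, the thyrotropin-releasing hormone gene, read 2.56 on its unlisted and 0.17 on its H spot. Avpr1a, a vasopressin receptor, read 2.60 and 0.29, and Agt, the angiotensin precursor gene, 1.92 and 0.04, each on an unlisted and an H spot. The other 6 genes, Insr, Igf1r, Ucn, Avpr1b, Nkx6-1 and Sytl4, differed by less than 1 unit in either direction on the means of their spots. The unlisted spots of Sytl4 disagreed, at 1.54 and -0.03, beside 0.03 on its P and -0.11 on its H spot.

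**Figure D4:**
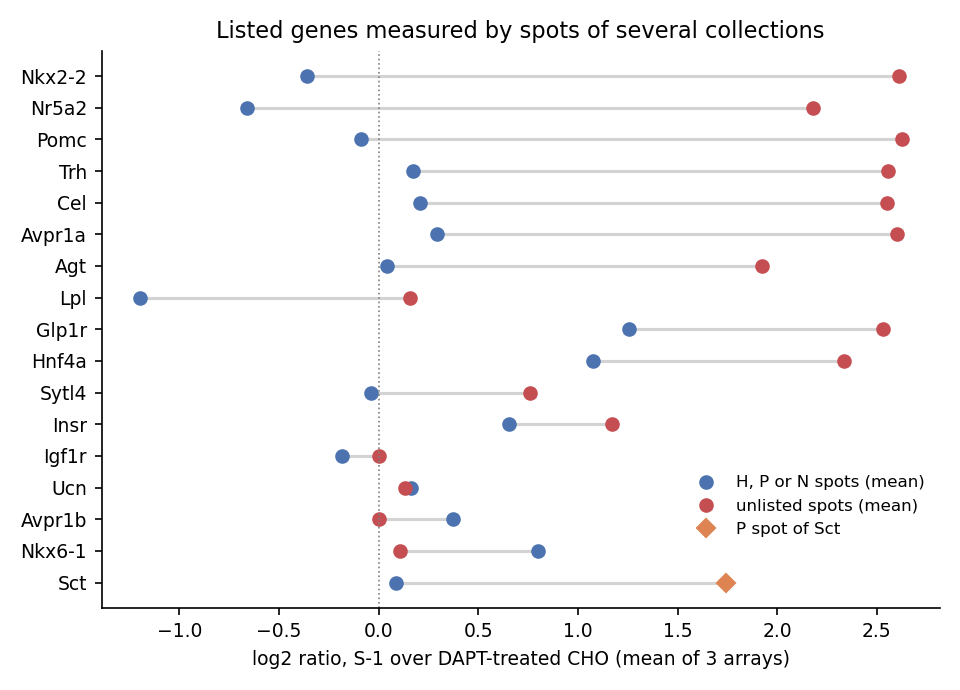
Log2 ratio, S-1 against DAPT-treated CHO, mean of 3 arrays (x axis), for listed genes with spots in more than 1 collection (y axis). Red points are the mean of the unlisted spots and blue points the mean of the H, P or N spots of the same gene, and the last line shows the P and H clones of Sct. The red point is over 1 unit to the right for 10 of 16 genes, and the pair of Sct clones lies 1.66 apart.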

How the data were processed

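RNA of S-1 and parental CHO cells was amplified by 1 round, labelled and hybridised to 3 two-colour mouse cDNA arrays of 17664 spots in 32 blocks. The deposited log2 ratios were made by the authors from GenePix Pro scans without background subtraction, by print-tip lowess within each array, and they run in one direction, with S-1 as numerator. Signal intensities were not used here, and the number of arrays limits the precision. The 5 genes and the gene lists were chosen with earlier results of these data known.

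Probe names came from the platform annotation: 12563 tested spots carried 1 gene name, 412 several and 3953 none. At 23 positions per block, 736 control spots were left out, since their ratios turned sign with the dyes (r between -0.97 and -0.96 across orientations), a choice made after their values were seen. Clone collections were assigned by position: of 2658 clones named by the study, 2549 were matched to 1 spot by ratio alone, and 2548 of these lay at a position of their own letter. The positions had been derived from these same clones, so the match is no independent check of the assignment. Gene values are means of the spots with the same single symbol. Gene values and spots were each tested against 0 with limma 3.58.1 in R 4.3.3 (1 coefficient, empirical Bayes, Benjamini-Hochberg adjustment over all 8146 genes or 16928 spots, threshold 0.005, the study's cut-off), after a test on simulated data. Tables were made with Python 3.11.15, pandas 2.3.3 and NumPy 2.4.6, and plots with Matplotlib 3.10.9.

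Genes beyond the 5 were named by rule: the transfected subunits and the cognate receptors, up to 4 passing genes per list with the largest mean of the same sign on all arrays, up to 2 that did not pass, and the 3 nearest spots by distance. Vip, Neurog3, Cpd, Lhx9, the genes of several collections (Trh, Pomc, Avpr1a, Agt, Igf1r and Sytl4) were named after their values were seen. Alternatives were centring (array, block or collection), scaling, quantile normalisation, a dye coefficient, each array left out, a threshold of 0.05, the median of spots, control spots included, unlisted spots left out and a robust prior. The use of H clones alone or in place of other spots was added after seeing the data.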

Additional observations from a re-analysis of the deposited data

How the results depend on the processing

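The 6 spots of the 5 genes moved by less than 1 SD when arrays or print-tip blocks were centred, or arrays were scaled or quantile normalised. With dye as a coefficient or an array left out they also moved by less than 1 SD. With 3 arrays those shifts stay below 1 SD for any values, so nothing is read from them. With clone collections centred, Ins2 read 0.94 in place of 2.50 and Hcrt 1.24 in place of 2.79, while the other 4 spots moved by less than 1 SD. The 51 listed genes that rose became 31 with control spots included, all of them among the 51, 19 of 75 with unlisted spots left out, and 0 of the 26 with an H clone by limma on H clones alone, of which 3 were higher at an unadjusted p under 0.05. Without 1 array, 35 to 57 listed genes rose, with 35 without array 2. The 6 that fell became 14 with collections centred and 1 with control spots included, and 2 to 9 without 1 array, with 2 without array 1 or 2 and 9 without array 3.

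With collections centred, Ucn read -0.65, Avp -1.54, Galr3 -1.32, Avpr1b -0.61, Rab3a -0.50 and Nkx6-1 -0.47, each positive before. On H clones, alone or in place of other spots, Pcsk6 read -0.22 and Pcsk5 -0.0525, and without its unlisted spot Nkx2-2 read -0.36. For these changes, the construction of the alternative shows what was moved or left out, and the cause of the difference between collections was not tested. Each ratio already pairs both RNAs of an experiment on the same array, so the limma test of the ratios against 0 was a paired comparison.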
